A study of Mus musculus with 6 samples.

Results

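Type I interferon-stimulated effector genes encode the proteins that hold back virus growth in a cell that has sensed interferon. A list of 44 such genes was looked up by symbol in the gene table of a study of STING, and all 44 were found among its 27507 gene identifiers. The study measured poly(A) RNA of L929 cells, an established line of mouse fibroblasts, by RNA-seq in 3 control samples with the genotype label WT and 3 samples with the label STING KO. No treatment, time point or virus is named for either group. The labels do not say how the knockout was made or whether it is 1 clone, nor that the replicates are separate cultures. A p-value here thus reflects how far these 6 libraries scatter, and part of that scatter may be technical.

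As background, type I interferons bind the receptor IFNAR1 and IFNAR2, whose kinases JAK1 and TYK2 activate transcription factors. These act through the complex ISGF3, which binds the interferon-stimulated response element in promoters of effector genes. STING, an adaptor of the endoplasmic reticulum, passes the signal of the DNA sensor cGAS to the kinase TBK1 and the transcription factor IRF3, which switches on interferon beta. Many effector genes keep a low basal level in cells that have met no virus, and this level can depend on small amounts of interferon or on such factors without it.

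The values are normalized counts, which are gene counts divided by a size factor of each library, with totals of 14382072 to 14526606 per library. Sting1, listed under its older symbol Tmem173, was at 329, 313 and 311 in control libraries and at 82.2, 80.6 and 93.4 in STING KO libraries, so its RNA goes with the label in all 6 libraries. The change was -1.90 in log2 (SE 0.09, adjusted p by limma 9.72e-06). Of 16 fibroblast markers 14 passed the minimum used for testing, and Lum and Dcn did not. Dcn was at 94.4 in control replicate 3 and 32.7 in STING KO replicate 1, against 0 to 4.99 elsewhere. In the same libraries Lum was at 31.8 and 11.9, against 0 to 0.998 elsewhere. The epithelial marker Krt18 was at 39.7 and 36.6 in them, against 2.99 to 8.99 elsewhere. Hepatocyte markers summed to 6344 in control replicate 3 and 5878 in STING KO replicate 1, against 374 to 871 in the other 4 libraries. Of 15 macrophage and leukocyte markers 6 passed the minimum, and their sums were 1372 to 1651 in control and 1394 to 1617 in STING KO, most of it from Cd68 (669.9 to 860) and Cd74 (549.6 to 662). Adgre1 and Itgam were at 4.97 or less, while Lyz2 was at 97.4 in control replicate 3 and 71.3 in STING KO replicate 1 against 15.96 to 22.1 elsewhere.

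Most of the effector genes had RNA in both groups with no treatment named. Of the 44, 38 reached at least 10 normalized counts in at least 3 of the 6 libraries, which was the minimum for testing, and 6 did not. The 6 below it were Mx2, Ifitm1, Rsad2, Ddx60, Ifit3b and Mx1, and no member was at 0 in all 6 libraries. At a minimum of 5 in 3 libraries 41 passed, and at 20 in 3 libraries 36 passed, without Ifit1 and Cmpk2. By mean over the 6 libraries, 7 members had at least 1000 normalized counts and 24 at least 100.

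Levels spanned several orders of magnitude. Divided by the length of the longest annotated transcript, the tested members ran from 4.21 normalized counts per kb for Cmpk2 to 4451 for Ifitm3. Their median was 57.1 per kb against 153 over all tested genes, and 8 of the 38 lay above that overall median. These 8 were Ifitm3, Lgals3bp, Ifi27, Ifitm2, Bst2, Zc3hav1, Ifi35 and Eif2ak2. Lgals3bp, Zc3hav1, Ifitm3 and Ifi27 alone held 58.8% of all normalized counts of the 44 genes. The 44 genes summed to 26518 ± 79.7 (SD, n = 3) in control libraries and to 26273 ± 536 (SD, n = 3) in STING KO libraries, which is 0.184% and 0.182% of the library.

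**Figure D1:**
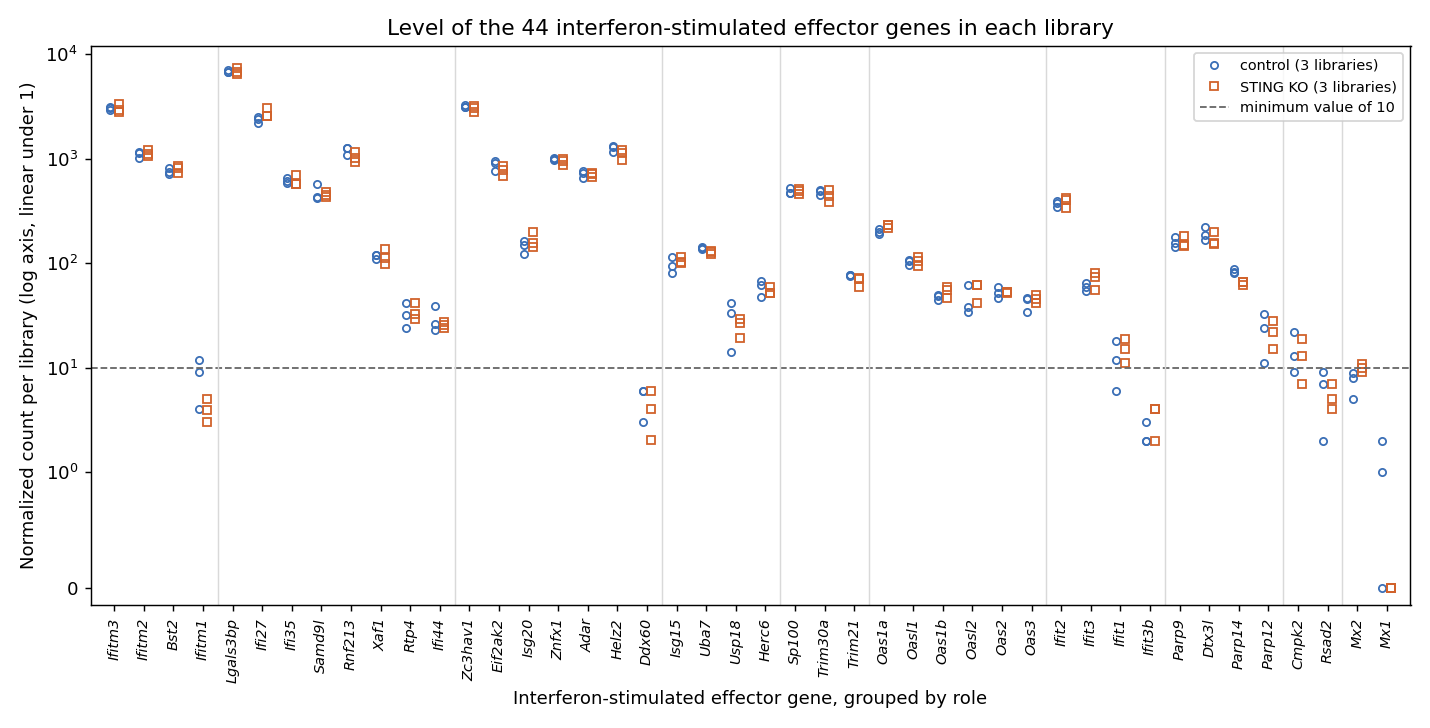
Normalized count of each of the 44 genes (log axis, linear under 1) in 3 control libraries (circles) and 3 STING KO libraries (squares), grouped by role, with the minimum value of 10 as a dashed line. The levels run from 1.99 or less for Mx1 to 6463 or more for Lgals3bp.

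The promoters show a sequence that part of the list shares. RefSeq promoters of GRCm38.p6, from 250 bases before to 50 bases after the start, were found for 35 of the members by symbol. The core of the interferon-stimulated response element, searched as GAAA, any 2 bases and GAAA on both strands, was present in a promoter of 14 of these 35 genes. It was present for 3.99% of the 27025 genes in the promoter table and for 3.59% of the tested genes with an entry. The gamma-activated site, searched as TTCNNNGAA, which reads the same on both strands, was present for 8 of the 35 members and for 9.55% of all genes. In Bst2 a match of each motif overlaps the other. A match is a run of letters in this window and does not show a binding site.

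The element core was found both in genes with much RNA and in genes below the minimum. It was in the windows of 11 of 31 tested members and of 3 of the 4 members below the minimum with an entry. The tested members with a match had a median of 122 normalized counts per kb (5.06 to 4451) and the 20 without one 77.0 (4.21 to 2936). Stretches upstream of 7 genes are printed to show this, 5′ to 3′ on the strand of the gene, with element matches in capitals. Those of Ifitm3 and Lgals3bp begin 226 and 250 bases before the start and stop short of it, and the other 5 run from 200 bases before up to the start. Ifitm3 and Lgals3bp were chosen for their high level and Ddx60, Ifit3b and Rsad2 for their low one, while Bst2 and Isg15 were added after the matches were seen. They are chr7:141010771-141010970 (minus strand) for Ifitm3, chr11:118402093-118402209 (minus) for Lgals3bp and chr8:71537473-71537672 (minus) for Bst2. The window of Isg15 is chr4:156200819-156201018 (minus), that of Ddx60 chr8:61927887-61928086 (plus), that of Ifit3b chr19:34607757-34607956 (plus) and that of Rsad2 chr12:26456453-26456652 (minus).
Ifitm3: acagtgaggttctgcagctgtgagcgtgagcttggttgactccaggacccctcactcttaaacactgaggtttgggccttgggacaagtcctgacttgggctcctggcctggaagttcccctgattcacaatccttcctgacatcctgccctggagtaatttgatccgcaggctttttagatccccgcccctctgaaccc
Lgals3bp: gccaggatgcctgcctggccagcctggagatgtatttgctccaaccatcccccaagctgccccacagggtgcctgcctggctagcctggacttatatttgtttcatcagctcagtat
Bst2: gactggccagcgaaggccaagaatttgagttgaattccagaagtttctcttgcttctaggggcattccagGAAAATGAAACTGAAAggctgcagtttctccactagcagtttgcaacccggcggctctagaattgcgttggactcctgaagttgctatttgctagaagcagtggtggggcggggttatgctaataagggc
Isg15: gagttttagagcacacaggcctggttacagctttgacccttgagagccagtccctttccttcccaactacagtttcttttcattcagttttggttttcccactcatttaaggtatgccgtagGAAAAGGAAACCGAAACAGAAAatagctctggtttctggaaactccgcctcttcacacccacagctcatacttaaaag
Ddx60: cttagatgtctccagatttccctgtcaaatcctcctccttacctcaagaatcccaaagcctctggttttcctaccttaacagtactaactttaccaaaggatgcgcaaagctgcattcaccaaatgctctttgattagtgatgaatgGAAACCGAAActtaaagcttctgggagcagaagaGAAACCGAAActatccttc
Ifit3b: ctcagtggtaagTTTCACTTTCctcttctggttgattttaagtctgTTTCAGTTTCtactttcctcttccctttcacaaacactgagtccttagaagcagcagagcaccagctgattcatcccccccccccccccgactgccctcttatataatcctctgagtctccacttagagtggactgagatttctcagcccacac
Rsad2: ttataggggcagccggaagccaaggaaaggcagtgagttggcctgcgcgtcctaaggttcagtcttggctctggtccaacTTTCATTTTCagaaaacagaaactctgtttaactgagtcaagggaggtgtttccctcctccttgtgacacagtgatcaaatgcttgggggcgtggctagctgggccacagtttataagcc
Isg15 carried 3 overlapping copies of the core, at 78, 72 and 66 bases before the start, and Bst2 carried 2 overlapping copies. Ddx60 carried the same 10 letters, GAAACCGAAA, at 53 and at 19 bases before the start, although its RNA was at 2.01 to 5.99 normalized counts. The stretch printed for Ifitm3, the member with the most RNA per kb, holds no match, and its 2 matches lay 2 and 19 bases after the start.

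No member was called between STING KO and control. limma found 0 of 38 tested members at an adjusted p of 0.05 or less. Of the 12408 genes tested 32, or 0.258%, were called, all lower in this fit. The smallest adjusted p of a member was 0.717, for Parp14. At an unadjusted p of 0.05 or less there were 3 members, beside 6.37% of all genes. Parp14 and Rnf213 were lower, beside 3.18% of all genes, and Ifi27 was higher, beside 3.2%. limma-voom also called 0 members, and in the authors' deposited table all 42 members with an adjusted p are at 1, beside 0.294% of genes called there. The median log2 fold change was -0.0095 over the members and -0.0025 over all genes, and 18 members had a positive and 20 a negative sign.

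The intervals show how large a change the data leave possible. The 95% interval of the change lay within 2-fold in both directions for 36 of 38 members and within 1.5-fold for 29. Over all tested genes these shares were 95.1% and 85.4%. Ifit1 and Cmpk2, both near 14 normalized counts, were the members whose interval reached past 2-fold, with 0.691 to 2.59 and 0.438 to 1.76. At this depth a 2-fold rise of Ifit1 or a 2-fold fall of Cmpk2 could not be told from no change.

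**Figure D2:**
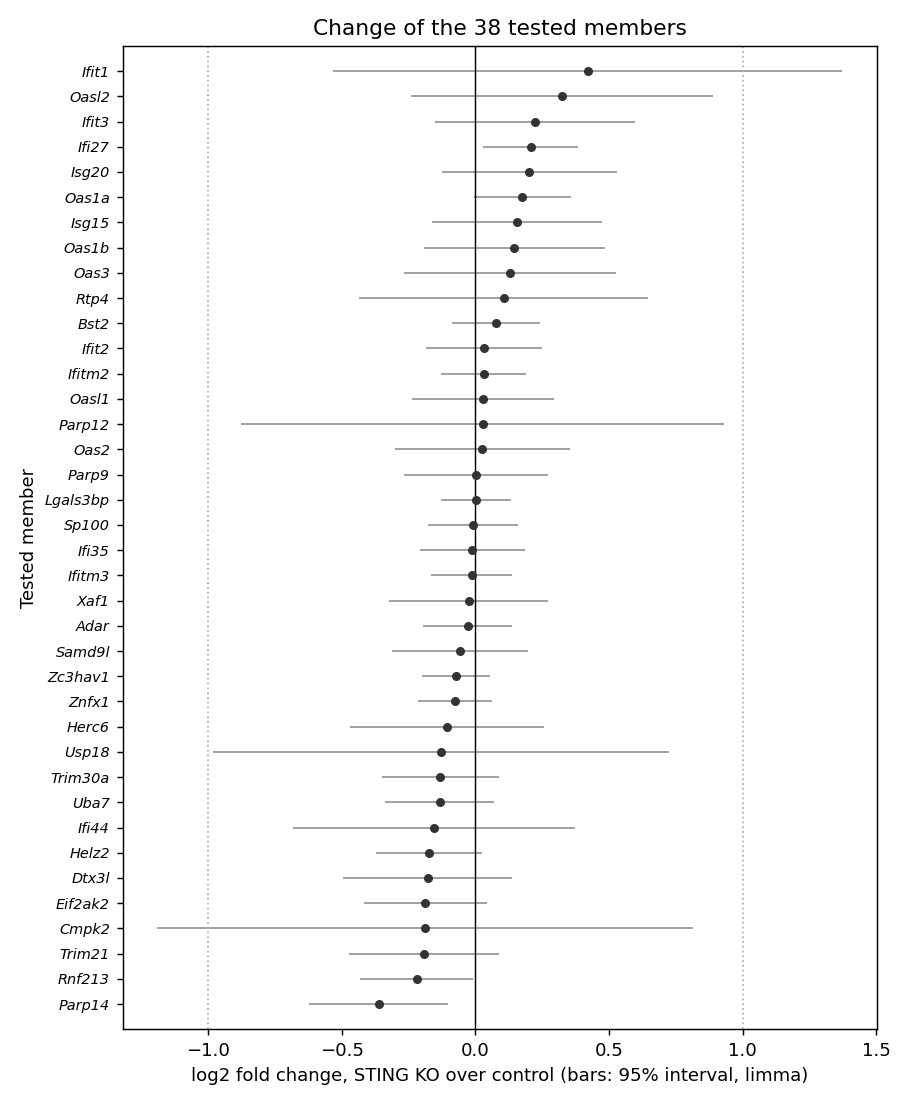
Change of the 38 tested members (log2, STING KO minus control) with 95% intervals from limma, where dotted lines mark a 2-fold change. Points run from -0.36 for Parp14 to 0.42 for Ifit1, and the intervals of Parp14, Rnf213 and Ifi27 exclude 0 before adjustment.

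The membrane-associated restriction factors included the member with the highest level per length. IFITM proteins sit in membranes and hinder the fusion of viruses with the cell, and Bst2 encodes tetherin, which holds budding virus at the surface. Ifitm3 was at 3032, 3152 and 2904 in control libraries and at 2909, 2799 and 3309.8 in STING KO libraries. Its groups overlapped, with a change of -0.01 in log2 (SE 0.07, adjusted p by limma 0.951) and a 95% interval of 0.891 to 1.10-fold. Per kb it stood above 99.1% of tested genes. Ifitm2 was at 1024 to 1158 in control and 1057 to 1211 in STING KO, and Bst2 at 719 to 807 and 737 to 853. Ifitm1, which lies between Ifitm2 and Ifitm3 on chromosome 7 (140967221 to 140969825), was below the minimum at 8.99, 3.99 and 11.9 in control libraries and at 3.96, 4.98 and 3.01 in STING KO libraries. These groups overlapped, through control replicate 2.

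Sequence shared with other genes limits some of these values. Windows of 50 bases were taken along the longest transcript of each member and looked up in transcripts of all other genes. More than 10% of the windows were shared for 7 members, among them Ifitm2 at 48.5%, most of it with the gene Gm45717. Ifitm3 at 10.02% and Rtp4 at 13.65% were also among them. For 20 members no window was shared.

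Among the RNA-recognising effectors, Zc3hav1 had the most RNA per kb. It encodes the zinc finger antiviral protein, which binds CpG-rich viral RNA and leads to its decay. It was at 3139.9, 3122 and 3257 in control libraries and at 3027, 3218 and 2819 in STING KO libraries, with overlapping groups (change -0.07 in log2, SE 0.06, adjusted p by limma 0.747). Its change was -0.02 without STING KO replicate 3 and -0.12 without STING KO replicate 2. Eif2ak2 encodes PKR, a kinase that stops translation on binding double-stranded RNA, and was at 918, 760.1 and 959.7 in control libraries and at 782, 846 and 685 in STING KO libraries. Its groups overlapped, with control replicate 2 below the first and the second STING KO library. Helz2, a helicase and nuclear receptor coactivator, was at 1286, 1150.2 and 1311 against 1145, 1217 and 971, again with control replicate 2 inside the range of STING KO. Their log2 fold changes were -0.19 (SE 0.10) and -0.17 (SE 0.09), both at a limma adjusted p of 0.738. Without STING KO replicate 3 they were -0.10 for Eif2ak2 and -0.08 for Helz2, and without control replicate 2 Eif2ak2 was at -0.29.

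The remaining genes of this role had overlapping groups and were not called. Znfx1, an RNA helicase at mitochondria, was at 962 to 1007 in control and 879 to 998 in STING KO. Adar, which edits adenosine to inosine in double-stranded RNA, was at 652 to 766 and 663 to 728. Isg20, an exonuclease, was at 122, 163 and 148 in control libraries and at 157, 143 and 198 in STING KO libraries, which overlap. Ddx60, a helicase, was at 2.01 to 5.99 over the 6 libraries and was not tested.

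The OAS family makes the 2-5A messenger that switches on RNase L, and Oasl1 is known to hold back translation of Irf7 RNA. All 6 members passed the minimum, all 6 had a positive sign and 0 were called, with log2 fold changes of 0.03 to 0.32. Of all tested genes 49.2% had a positive sign. In the same fit the 3 tested IFIT members were positive too, while Sp100, Trim21 and Trim30a were all negative. The sign turned negative for Oasl1 in 3 of its 15 alternative fits and for Oas2 and Oas3 in 1 of 14 each. Oas1a had the most RNA per kb of them. It was at 213, 199.5 and 192 in control libraries and at 229.6, 218 and 234 in STING KO libraries, so each STING KO library lay above each control library (change 0.18 in log2, SE 0.08, adjusted p by limma 0.738). Such separation in either direction was seen for 5 of 38 members, Oas1a, Ifi27, Parp14, Trim21 and Uba7, and for 12.1% of all tested genes. STING KO lay above for 2 of these members, beside 5.76% of all genes, and below for 3, beside 6.32%.

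The separation of Oas1a was not seen once its closest relative was counted with it. Of the windows of the Oas1a transcript 57.6% are also in Oas1g, a neighbour that was at 41.9, 41.9 and 69.5 in control libraries and at 48.5, 38.8 and 44.2 in STING KO libraries. The sum of both was 241 to 261 in control and 257 to 278 in STING KO, which overlap. Oas1b, annotated as a polymorphic pseudogene in GENCODE M21 because the reference strain carries a truncated form, was at 44.7 to 49.9 and 46.2 to 58.4. Oas2 was at 45.9 to 58.6 and 51.8 to 53.4, Oas3 at 33.9 to 45.9 and 41.6 to 49.8. Oasl1 was at 94.8 to 107 and 93.0 to 115, and Oasl2 at 33.9 to 61.6 and 41.2 to 61.7. The 4 Oas genes share a stretch of chromosome 5, from 120730333 for Oas2 to 120907521 for Oas1a.

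The IFIT proteins bind the ends of foreign RNA or partner each other in doing so, and their genes lie side by side on chromosome 19. They differed widely in level while none differed between the groups past the test. Ifit2 had the most RNA per kb and was at 379, 348 and 397 in control libraries and at 419.7, 400.2 and 334 in STING KO libraries. Its groups overlapped, with STING KO replicate 3 the lowest of all 6 (change 0.03 in log2, SE 0.10, adjusted p by limma 0.924). Ifit3 was at 53.9 to 64.6 in control and 55.2 to 80.2 in STING KO, and Ifit1 at 5.99 to 17.96 and 11.05 to 18.8. Ifit3b was at 1.99 to 2.995 and 1.98 to 4.02. Of the Ifit3 windows 51.2% are also in Ifit3b, so counts could be assigned to either, and the sum of both was 55.9 to 66.6 in control and 59.2 to 82.2 in STING KO.

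ISG15 is a ubiquitin-like protein that is joined to targets by the E1 enzyme encoded by Uba7 and, in the mouse, the ligase encoded by Herc6, and is removed by the protease USP18, which also blocks signalling at IFNAR2. RNA of the whole set was present. Isg15 was at 92.8, 80.8 and 114 in control libraries and at 101, 102 and 115 in STING KO libraries, with overlap (change 0.16 in log2, SE 0.14, adjusted p by limma 0.766). The change of Isg15 was 0.04 without control replicate 2 and 0.29 without control replicate 3. Uba7 was at 143, 139 and 136 in control libraries and at 122, 127 and 132 in STING KO libraries. Its groups did not overlap, yet it was not called (change -0.13 in log2, SE 0.09, adjusted p by limma 0.741). Herc6 was at 47.7 to 66.9 and 51.8 to 58.4, and 23.8% of its windows are in the overlapping transcript Gm45193. Usp18 was at 32.9, 14.0 and 41.7 in control libraries and at 26.7, 28.9 and 19.1 in STING KO libraries, where control replicate 2 was the lowest of all 6 libraries.

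Of the PARP group, Parp14 came closest to a call. PARP9, PARP12 and PARP14 are ADP-ribosyltransferases or their relatives, and DTX3L is the ubiquitin ligase that pairs with PARP9. Parp14 was at 81.9, 79.8 and 88.4 in control libraries and at 62.4, 65.7 and 66.3 in STING KO libraries. Each STING KO library lay below each control library, with a change of -0.36 in log2 (SE 0.12, adjusted p by limma 0.717) and a 95% interval of 0.649 to 0.932-fold. It kept a negative sign in all 15 alternative fits, from -0.39 to -0.28, and its limma adjusted p was 0.357 or more in each. Parp14 (chromosome 16, 35832874 to 35871544, protein coding) lies next to Dtx3l and Parp9.

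Its neighbours showed no such separation. Parp9 was at 157, 144 and 176 in control libraries and at 183, 150.3 and 145 in STING KO libraries (change 0.00 in log2, SE 0.12, adjusted p by limma 0.994). Dtx3l was at 165 to 224 and 151 to 200.1. The annotations of both overlap by 682 bases on opposite strands, and the strand setting of the counting is not given in the sources used here. Parp12, on chromosome 6, was at 10.97 to 32.8 and 15.1 to 27.9.

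Sp100, a component of nuclear bodies, had the most RNA per kb of its role at 464, 474 and 529 in control libraries and at 511, 459 and 488 in STING KO libraries, which overlap (change -0.01 in log2, SE 0.08, adjusted p by limma 0.976). Trim21, a receptor and ubiquitin ligase for antibody-bound virus, was at 74.9, 76.8 and 76.5 in control libraries and at 59.4, 69.7 and 71.3 in STING KO libraries. Its groups did not overlap, and the nearest libraries were 71.3 and 74.9 (change -0.19 in log2, SE 0.13, adjusted p by limma 0.741). Without STING KO replicate 1 the change of Trim21 was -0.11. Trim30a, a mouse regulator of NF-kB signalling, was at 451 to 502 and 385 to 501.

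The other effectors included 2 of the highest members per kb. Lgals3bp, a secreted glycoprotein that binds galectins, was at 6718, 7083 and 6694 in control libraries and at 6686, 6463 and 7404 in STING KO libraries (change 0.00 in log2, SE 0.06, adjusted p by limma 0.992). Its groups overlapped fully. Ifi27, a small hydrophobic protein, was at 2402, 2504 and 2197 in control libraries and at 2587, 2559.7 and 3066 in STING KO libraries. Each STING KO library lay above each control library, by a margin of 2504 against 2559.7 (change 0.21 in log2, SE 0.08, adjusted p by limma 0.738). Without STING KO replicate 3 the change of Ifi27 was 0.12. Rnf213, a giant ubiquitin ligase with the longest transcript of the list, was at 1259, 1072 and 1275 in control libraries and at 1014, 1157 and 928 in STING KO libraries. These overlapped, since control replicate 2 lay below STING KO replicate 2 (change -0.22 in log2, SE 0.09, adjusted p by limma 0.738).

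Ifi35 was at 584 to 651 in control and 567 to 696 in STING KO, Samd9l at 423 to 574 and 432 to 480, and Xaf1 at 110 to 119 and 97.0 to 136. Rtp4 and Ifi44 were far lower, at 24.0 to 41.7 and 29.1 to 41.6 for Rtp4 and at 22.9 to 38.7 and 23.9 to 27.1 for Ifi44. The annotated span of Rtp4 overlaps the end of Masp1 by 525 bases on the opposite strand, and Masp1 had a mean of 1982 in control.

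The classic induced genes for viperin and the Mx proteins were at or below the minimum in both groups. Viperin, the product of Rsad2, makes a nucleotide that ends viral RNA chains, from a substrate supplied by CMPK2, and both genes lie side by side on chromosome 12. Cmpk2 was at 13.0, 8.98 and 21.9 in control libraries and at 12.9, 18.9 and 7.03 in STING KO libraries, with overlap (change -0.19 in log2, SE 0.45, adjusted p by limma 0.904). Rsad2 was at 8.99, 1.995 and 6.95 in control libraries and at 6.93, 4.98 and 4.02 in STING KO libraries, which overlap.

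Mx1 and Mx2 encode dynamin-like GTPases that block virus replication, and many laboratory mouse strains carry defective copies. Mx2, a polymorphic pseudogene in the annotation, was at 7.99, 4.99 and 8.94 in control libraries and at 10.9, 9.96 and 9.04 in STING KO libraries. These groups touch without overlap at values of a few counts, and the gene was not tested. Mx1 was at 0, 0.998 and 1.99 in control and at 0 in all 3 STING KO libraries. In a library of this size a count of 0 allows up to 3 counts, or 0.209 CPM at most, so no difference was detectable at this depth.

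Within each group, the order of the libraries went with transcript length, for members and for other genes. Of the 12 tested members with a transcript of at least 4 kb, 11 were lowest in control replicate 2 among the controls, beside 61.5% of all tested genes of that length. In STING KO, replicate 3 was lowest for 7 of the 12, beside 64.8% of such genes. Of 12 members under 2 kb, 8 were highest in STING KO replicate 3, beside 65.3% of such genes. Another 4 of these 12 were lowest there, beside 15.5%. Control replicate 2 was highest of the controls for 6 and lowest for 3, beside 65.2% and 15.4%. Of the changes, 1 of 12 long members and 9 of 12 short members had a positive sign, against 28.9% and 74.3% of all genes of those lengths. The median log2 fold changes of the long and short members were -0.13 and 0.13, beside -0.05 and 0.07 over all tested genes of those lengths.

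Parp14, Rnf213, Helz2 and Eif2ak2 are long members and Ifi27 is a short one. The sign of each change is the one that most transcripts of its length had. Without STING KO replicate 3 these changes were -0.38 for Parp14, -0.15 for Rnf213, -0.08 for Helz2, -0.10 for Eif2ak2 and 0.12 for Ifi27. Whether length had a part in them was not tested. With deviations that follow GC content and length removed, a setting chosen after seeing the data, Rnf213 was at -0.13 (SE 0.06) and Ifi27 at 0.12 (SE 0.04), and Parp14 was at -0.28 (SE 0.13). Their limma adjusted p were then 0.569, 0.434 and 0.569. Of the 12 long members 3 then had a positive sign, and of the 12 short ones 7, with medians of -0.07 and 0.06. Ifitm3, also short, moved from -0.01 to -0.11 (SE 0.04, unadjusted p = 0.0134, limma adjusted p = 0.435). The part of RNA quality or library preparation in this was not tested.

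**Figure D3:**
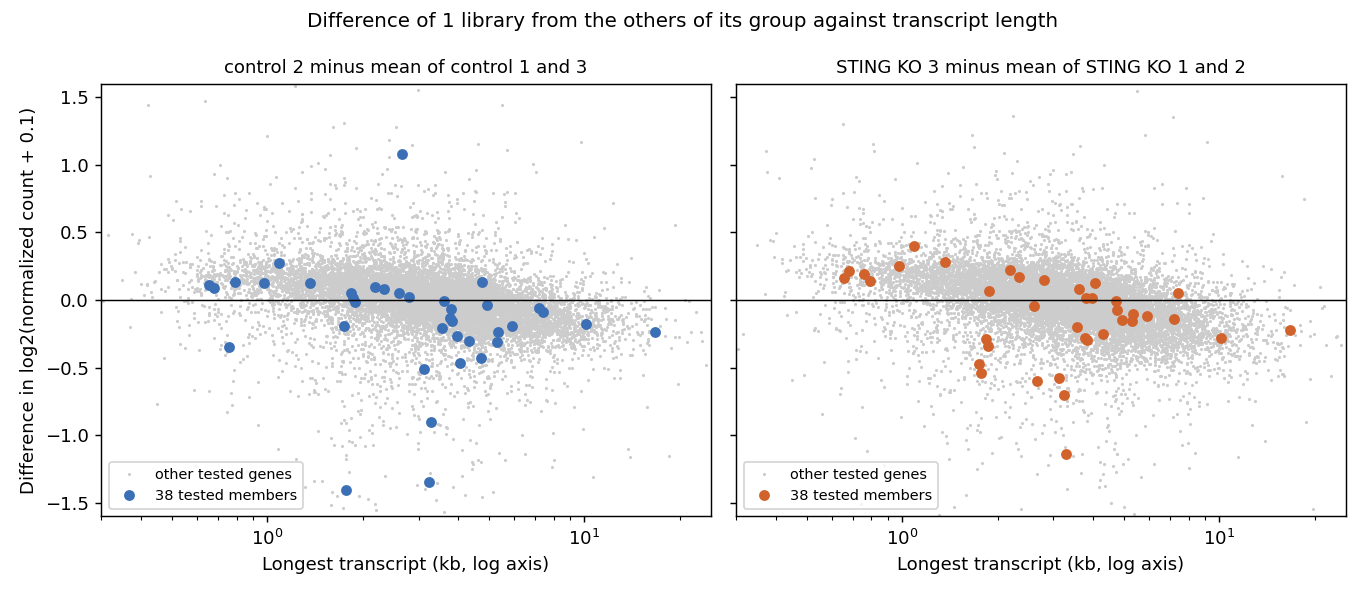
Difference of control replicate 2 (left) and STING KO replicate 3 (right) from the mean of the other 2 libraries of the group, in log2(normalized count + 0.1), against the longest transcript in kb (log axis), with members as large points and other tested genes in grey, of which 53 and 48 lie outside the axis. Most long transcripts lie below 0 and most short ones above it in both panels.

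Members with little RNA varied most between replicates on the log2 scale. Those tested with a mean under 50 had SEs of 0.18 (Oas3) to 0.45 (Cmpk2), against a median of 0.12 over all 38. Of the 8 tested members with a mean under 50 normalized counts, 6 were highest in control replicate 3 among the controls and 6 were lowest in control replicate 2, beside 35.1% and 37.2% of the 1760 genes under that mean. Usp18, Cmpk2, Parp12 and Ifi44 were among them. In STING KO, 6 of the 8 were lowest in replicate 3 and 5 were highest in replicate 2, beside 36.25% and 34.5% of those genes. Over all 38 members control replicate 3 was highest for 20, which is 52.6% beside 32.1% of tested genes. Hepatocyte marker sums were highest in control replicate 3 and STING KO replicate 1, and the part of that RNA in these orders was not tested. STING KO replicate 1 was highest in its group for 10 of 38 members, 26.3% beside 23.7%. Without both libraries 0 members were called, and the median log2 fold change of the members was 0.03.

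The genes upstream of the effectors separate into ligand genes mostly at 0 and receptor genes with RNA. Of 17 genes for type I interferons in the list of signalling genes, 13 were at 0 in all 6 libraries, Ifnb1 among them, and another 3 had a single count in 1 library. The remaining one, Ifnz, was at 5.94 to 10.04. As for Mx1, a count of 0 allows up to 3 counts, and secreted interferon is not measured by this assay. The receptor gene Ifnar1 was at 1055 to 1146 in control and 1057 to 1146 in STING KO, and Ifnar2 at 615 to 700.3 and 597 to 649.7. Jak1 was at 3833 to 4246 and 3738 to 4048, and Tyk2 at 1136 to 1179 and 1093 to 1179.8.

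Transcription factors of the response were present as well. Stat2 was at 596 to 629.8 in control and 566 to 621 in STING KO, and Irf9 at 456 to 509 and 431 to 443. Each STING KO library of Irf9 thus lay below each control library (log2 fold change -0.12, limma adjusted p = 0.738). Irf7, which strengthens the response once induced, was at 44.9 to 74.5 and 62.7 to 78.2. None of these 3 was called.

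Of the 40 signalling genes 23 were tested, and 2 of them were called lower in STING KO, beside 0.258% of all genes. These 2 were Sting1, the targeted gene itself, and Irf1, while 0 were called higher. Irf1, a transcription factor that can act on the same promoters without interferon, was at 441, 414 and 429 in control libraries and at 307, 312 and 313 in STING KO libraries (change -0.46 in log2, SE 0.07, adjusted p by limma 0.0217). Its call was lost without control replicate 1 (adjusted p = 0.214) or 3 (0.153) and without STING KO replicate 1 (0.185) or 2 (0.0762), and without control replicate 3 and STING KO replicate 1 together (0.811). The call was also lost with a replicate block in the fit (0.293). The log2 fold change in all these fits was -0.47 to -0.44. The call of Irf1 was kept without control replicate 2 (limma adjusted p = 0.0470) or STING KO replicate 3 (0.0317). It was also kept with the GC and length correction (0.00486). With the other pseudocount, filters and scalings and with limma-voom its adjusted p was 0.0196 to 0.0322. The next by p were Socs3, an inhibitor of cytokine signalling (-0.38, SE 0.08, limma adjusted p = 0.158 and 0.0470 with the GC and length correction), and Ikbke, a kinase related to TBK1 (-0.25, SE 0.10, limma adjusted p = 0.738).

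**Figure D4:**
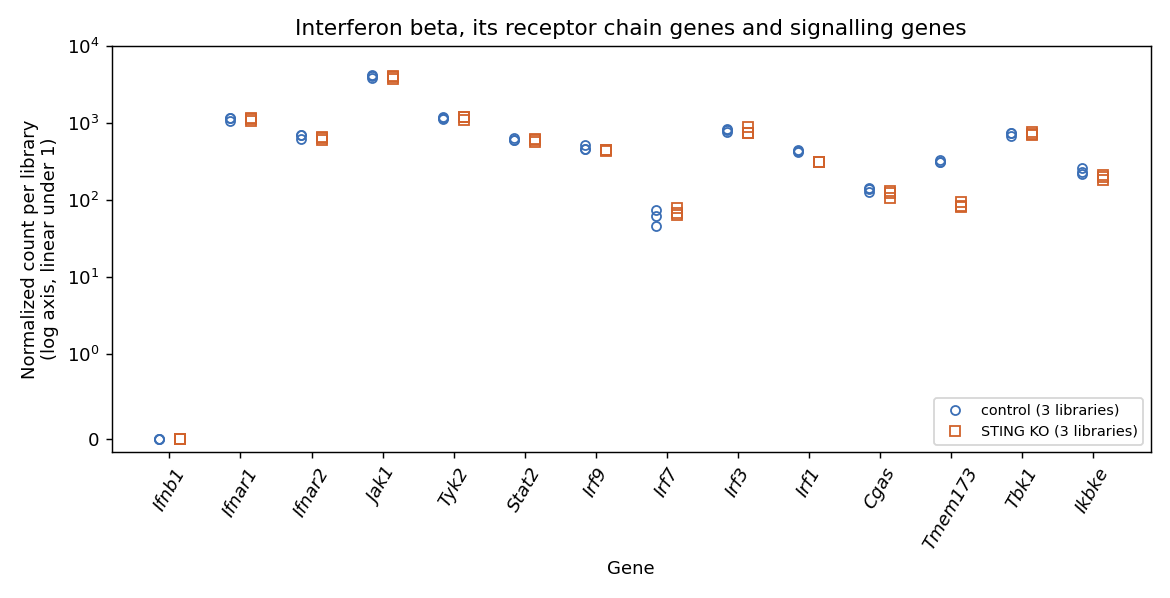
Normalized count (log axis, linear under 1) of interferon beta and 13 genes of its induction and signalling in 3 control libraries (circles) and 3 STING KO libraries (squares). Ifnb1 is at 0 in all 6, and the groups of the called genes Tmem173 (Sting1) and Irf1 stand apart, as do those of Irf9, which was not called.

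A wider list of 58 other interferon-induced genes gave the same count as the members. Of these 35 were tested and 0 were called by limma, with a median log2 fold change of -0.04. At an unadjusted limma p of 0.05 or less there were 2, beside 6.37% of all genes. Both, Stat3 and Gbp2, were lower, beside 3.18% of all genes. Stat3, a transcription factor of interleukin-6 signalling that interferon also induces, was at 2398 to 2534 in control and 1886 to 2071 in STING KO (-0.33, SE 0.05, limma adjusted p = 0.0554). Gbp2, an interferon-induced GTPase, was at 32.9 to 42.9 and 15.9 to 17.8 (-1.15, SE 0.20, limma adjusted p = 0.0796). Both passed the threshold with the GC and length correction, at 0.00291 and 0.0382. Nmi, an adaptor of STAT proteins, was at 66.6 to 75.9 and 75.3 to 96.6 (limma adjusted p = 0.738).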

How the data were processed

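HISAT2 (2.0.4), Bowtie2 (2.2.5), RSEM (1.2.12), DESeq2 (1.4.5) and the builds GRCm38 and mm10 are named in the submitters' processing notes, without saying what each did. The annotation is not given in the sources used here. The deposited table holds, per sample, a normalized signal: the values fit gene counts that the authors scaled by 1 factor per library, since every value of a column, divided by the smallest one above 0, was whole within 0.01. Per the file headers it also gives the authors' log2 fold change, its standard error, a Wald score and p-values, raw and adjusted. Of 27821 rows the first of each identifier was used.

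limma 3.58.1 in R 4.3.3 took log2(normalized count + 0.1), with a trend of variance on mean, for 12408 genes with at least 10 in at least 3 samples, with Benjamini-Hochberg adjustment over all of them and a call at 0.05 or less. The pseudocount can understate changes of low genes. Transcript lengths and positions came from GENCODE M21 (GRCm38) and promoters from RefSeq. Depth per library was nearly equal, and pairs of replicates differed by more than counting noise (chi-square per degree of freedom of 2.41 or more). Members, lists and the naming rule were chosen with earlier results of these data known. The rule gives every library's value for the 8 tested members with the smallest p, the one with most RNA per kb in each role, and those with a mean of 5 or more below the minimum. Planned count tests (edgeR, DESeq2) and protein sequences were not run or used here. Epithelial and endothelial markers had 3 of 10 tested and 0 called. A gene of the signalling list is not reported here.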

Additional observations from a re-analysis of the deposited data

How the results depend on the processing

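No member was called under any alternative run: a pseudocount of 1, no filter, a mean of at least 5 CPM, TMM or upper-quartile scaling, limma-voom, a replicate block, leaving out each library, leaving out control replicate 3 with STING KO replicate 1, the authors' deposited test, and a GC and length correction chosen after seeing the data. The smallest adjusted p of a member was 0.357 (without control replicate 2). The count of members past the minimum ran from 36 to 43 over its alternatives, and was 38 without any 1 library. The 32 called genes became 18 with the replicate block and 60 with the GC and length correction. Without control replicate 3 and STING KO replicate 1 there were 12. Leaving out 1 library gave 21 to 35, with 21 without control replicate 1. The cause of these differences was not tested. All 32 were lower, while 7 of the 60 were higher. Also higher were 2 of the 29 called without control replicate 2 and 6 of the 41 in the authors' deposited test. Replicate numbers were not taken to pair the samples. Deviations of same-numbered libraries correlated at -0.183, -0.180 and -0.488, and the block called 0 members. Since the deviations within each group also go with transcript length, these correlations cannot decide whether samples are paired. No library correlated best with its own number (the highest values were 0.183 for control replicate 1 with STING KO replicate 2, 0.459 for 2 with 3 and 0.448 for 3 with 1). With the block Irf1 had an adjusted p of 0.293. Uncalled members near 0 changed sign. With upper-quartile scaling Sp100 was at 0.0114 and Ifitm3 at 0.00489. Without control replicate 3 and STING KO replicate 1, Parp9 was at -0.0253 and Sp100 at 0.0131, and with the GC and length correction Sp100 was at 0.0247 and Lgals3bp at -0.0416. Leaving out 1 library, log2 fold changes ran from -0.102 to 0.0788 for Parp9, -0.0550 to 0.0430 for Lgals3bp, -0.0334 to 0.130 for Ifit2, -0.0856 to 0.0354 for Ifitm3, -0.0444 to 0.0497 for Sp100 and -0.517 to 0.190 for Cmpk2. Count tests by edgeR and DESeq2 were planned and not run.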

Other observations

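Among the other interferon-induced genes, some related Ifi genes of chromosome 1 had much RNA. Ifi202b was at 1945 to 2169 in control and 2129.6 to 2199 in STING KO, and Ifi204 at 1299 to 1532 and 1483 to 1499. Ifi205, a close relative, was at 70.9 and 76.5 in control replicates 1 and 3 and at 52.5 to 69.7 in STING KO, but at 0 in control replicate 2, and was chosen after its values were seen. Others were near 0, with Slfn1 and Slfn8 at 0 in all 6 libraries and Gbp6 and Gbp10 at 1 count or less in each.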
